A study of Macaca fascicularis with 2 samples.

Results

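The 9 genes described here encode 6 myosin light chains (MYL1, MYL2, MYL3, MYL4, MYL6B and MYLPF, which newer annotations call MYL11) and 3 tropomyosins (TPM1, TPM2 and TPM3). They were taken by gene symbol from the 28162 genes in the files, and all 9 were found, as 57 RefSeq transcript rows. RNA came from gastrocnemius muscle, a calf muscle, of the cynomolgus macaque, Macaca fascicularis. There was 1 non-lean library, labelled with a high fat diet, and 1 lean library, labelled with a chow diet. The labels give no age or number of animals behind either library. The study set obese against lean skeletal muscle.

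Myosin light chains wrap around the lever arm of the myosin head, where each head carries 1 essential and 1 regulatory light chain. The regulatory chain can be phosphorylated, which tunes the force that a fibre gives at a set calcium level. Tropomyosin is a coiled coil that lies along the actin filament and, with troponin, covers or frees the sites to which myosin binds. Skeletal muscle makes these proteins from separate genes in fast and in slow fibres, so their mix is a known mark of fibre type.

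The non-lean library had 12731971 counts and the lean library 15983348 counts. Values below are estimated read counts, or scaled CPM, the usual CPM unit with library sizes adjusted by the trimmed mean of M-values (TMM). A ratio is on the log2 scale, with the non-lean library on top, and brackets give its 95% interval. These intervals cover counting error only. Each group has 1 library, so replicate spread is unknown and no p-value is given. Diet, the animal, the piece of muscle and the library preparation cannot be told apart in a ratio of 2 libraries. The words higher and lower as calls mean a difference of 2-fold or more with an interval that leaves out 0. The files give no transcript lengths, so levels are compared between libraries and not between genes.

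By ratios of 1 gene to another, the tropomyosin mix differed most among the members. TPM1 was lower in the non-lean library, while TPM2 and TPM3 had more counts there. Of the essential light chains, the slow chain MYL3 and the slow or non-muscle chain MYL6B were higher, and the fast chain MYL1 was close to even. With TMM, the regulatory chains MYLPF and MYL2 were within 1.25-fold. In tissue RNA, fewer cells of a type and less RNA per cell cannot be told apart. Together the 9 genes held 4.82% (4.80 to 4.83, Clopper-Pearson) of the counts in the non-lean and 4.47% (4.46 to 4.48) in the lean library.

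Of the 9 members, 8 were tested, which means that their mean scaled CPM was at least 1, and MYL4 was not. Called higher were 2, MYL3 and MYL6B, where 4.9% of the 13703 tested genes were called higher. Called lower was 1, TPM1, where 7.15% of tested genes were called lower. With total counts in place of TMM, TPM1 stood at -0.97 and TPM2 at 1.01, and with scaling to 11 other sarcomere genes TPM1 stood at -0.69, so the TPM1 call rests on the scaling while its direction does not. Of all calls, 40.7% were higher with TMM, 56.0% with total counts and 81.8% with the sarcomere genes. Of the intervals, 6 lay above 0 and 2 below, but for counts as high as these almost any difference does so, and over all tested genes the shares were 25.8% and 28.7%, and among the 190 most abundant genes 43.7% and 50%. In those 190 genes, which average 500 scaled CPM or more and hold 7 members, 2.11% were called higher and 3.68% lower. In that set TPM1 ranked 4th from the lowest ratio and MYL3 4th from the highest. The median ratio of the 8 members was 0.57, against -0.01 for all tested genes.

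**Figure D1:**
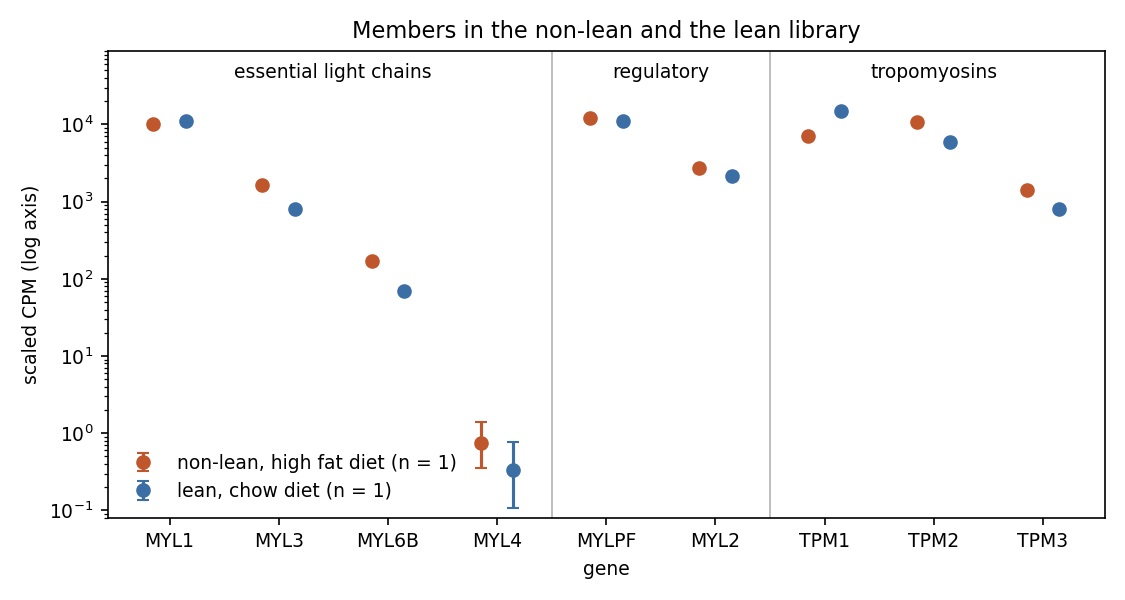
Scaled CPM (log axis) of each member in the non-lean and the lean library, with exact Poisson intervals that are narrower than the points except for MYL4. TPM1 lies lower in the non-lean library (7015 against 15119 CPM), and TPM2, TPM3, MYL3 and MYL6B lie higher there.

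Among the essential light chains, MYL1 encodes the fast skeletal chain. It had 135001 counts in the non-lean and 168316 in the lean library, or 10096 and 11059 CPM. The ratio was -0.13 [-0.14, -0.12], but it was 0.01 with total counts and 0.29 with scaling to the sarcomere genes, so its sign depends on the scaling. MYL1 was not called.

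MYL3, the essential chain of slow fibres and of the heart ventricle, had 21690 counts in the non-lean and 12264 in the lean library. These are 1622 and 806 CPM, a ratio of 1.01 [0.98, 1.04]. The value sits on the 2-fold line, and with DESeq2 size factors it was 0.98 and not called.

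MYL6B, an essential chain known from slow fibres and from non-muscle cells, had 2297 and 1055 counts, or 172 and 69.3 CPM. It had the highest ratio of the tested members, 1.31 [1.20, 1.42], which is 2.48-fold. Its neighbour in the reference gene order, the non-muscle chain MYL6, had 332 counts in the non-lean and 505 in the lean library. With TMM its ratio stood on the other side of 0, at -0.42 [-0.62, -0.22]. Scaling to the sarcomere genes adds 0.42, which brings MYL6 to about even, so its side of 0 depends on the scaling. The MYL6B/MYL6 count ratio, which does not, was 6.92 in the non-lean and 2.09 in the lean library, a factor of 3.31 (2.82 to 3.89).

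MYL4, the chain of the atrium and of developing muscle, had 10 counts in the non-lean and 5 in the lean library. Its ratio of 1.12 [-0.50, 3.09] held 0, and no difference was detectable at this depth. In the reference annotation MYL4 overlaps CDC27, a cell cycle gene with 356 and 446 counts. The protocols name no strand-marking step, so reads of overlapping genes may not be told apart by strand.

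With TMM, both regulatory light chains were within 1.25-fold. With total counts MYL2 stood at 0.46, and with scaling to the sarcomere genes MYL2 stood at 0.74 and MYLPF at 0.545. MYLPF, the fast chain, had 161011 counts in the non-lean and 168001 in the lean library, or 12042 and 11039 CPM, a ratio of 0.13 [0.12, 0.14]. MYL2, the chain of slow fibres and of the ventricle, had 36041 and 32818 counts, or 2695 and 2156 CPM, a ratio of 0.32 [0.30, 0.34]. Neither was called. The essential and regulatory chains of 1 fibre type therefore did not have the same ratio, with MYL3 at 2.01-fold and MYL2 at 1.25-fold.

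TPM1, the alpha tropomyosin of fast fibres and of the heart, had 93804 counts in the non-lean and 230095 in the lean library. In scaled CPM these are 7015 and 15119, a ratio of -1.11 [-1.12, -1.10], or 2.16-fold lower. TPM2, the beta tropomyosin of both fibre types, had 144200 and 90112 counts, or 10784 and 5921 CPM. Its ratio was 0.87 [0.85, 0.88], which is 1.82-fold and short of the call. TPM3, the alpha tropomyosin of slow fibres, had 19099 and 12376 counts, or 1428 and 813 CPM, a ratio of 0.81 [0.78, 0.85], or 1.76-fold.

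**Figure D2:**
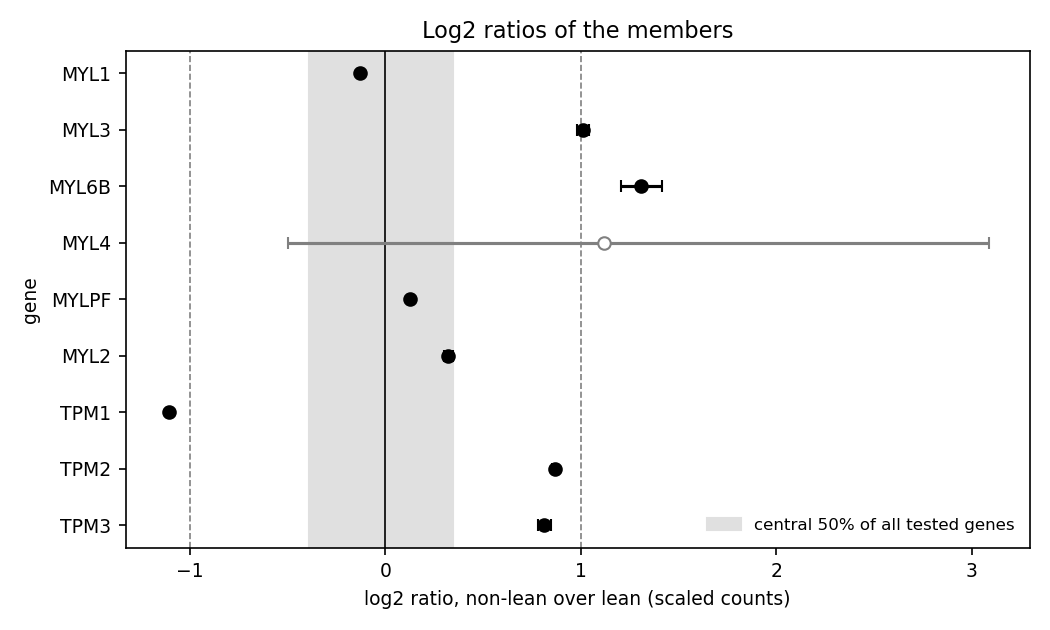
Log2 ratio (non-lean over lean) for each member with its 95% counting interval; the shaded band is the central 50% of all tested genes (-0.39 to 0.34), dashed lines mark 2-fold, and the open point, MYL4, was not tested. TPM1 lies at -1.11, MYL3 and MYL6B at or beyond 1, and MYL1, MYLPF and MYL2 inside the band.

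The share of each gene in the counts of its own class does not depend on how the libraries are scaled. Of tropomyosin counts, TPM1 held 36.5% (36.3 to 36.7) in the non-lean and 69.2% (69.0 to 69.3) in the lean library. TPM2 held 56.1% (55.9 to 56.3) and 27.1% (26.9 to 27.2), and TPM3 held 7.43% and 3.72%. The gene with the most tropomyosin reads was thus TPM2 in the non-lean and TPM1 in the lean library. These are shares of reads and not of molecules, since longer transcripts give more reads.

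Within the essential light chains, MYL1 held 84.9% (84.7 to 85.1) in the non-lean and 92.7% (92.5 to 92.8) in the lean library. MYL3 held 13.6% and 6.75%, and MYL6B 1.44% and 0.58%. Within the regulatory chains, MYL2 held 18.3% (18.1 to 18.5) and 16.3% (16.2 to 16.5), the smallest shift of the 3 classes. The class sums had ratios of -0.01 [-0.02, 0.00] for the essential chains, 0.16 [0.15, 0.17] for the regulatory chains and -0.18 [-0.19, -0.18] for the tropomyosins. Total counts add 0.14 to each of these sums and scaling to the sarcomere genes adds 0.42, so the essential chain sum turns positive with both and the tropomyosin sum with the sarcomere genes.

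**Figure D3:**
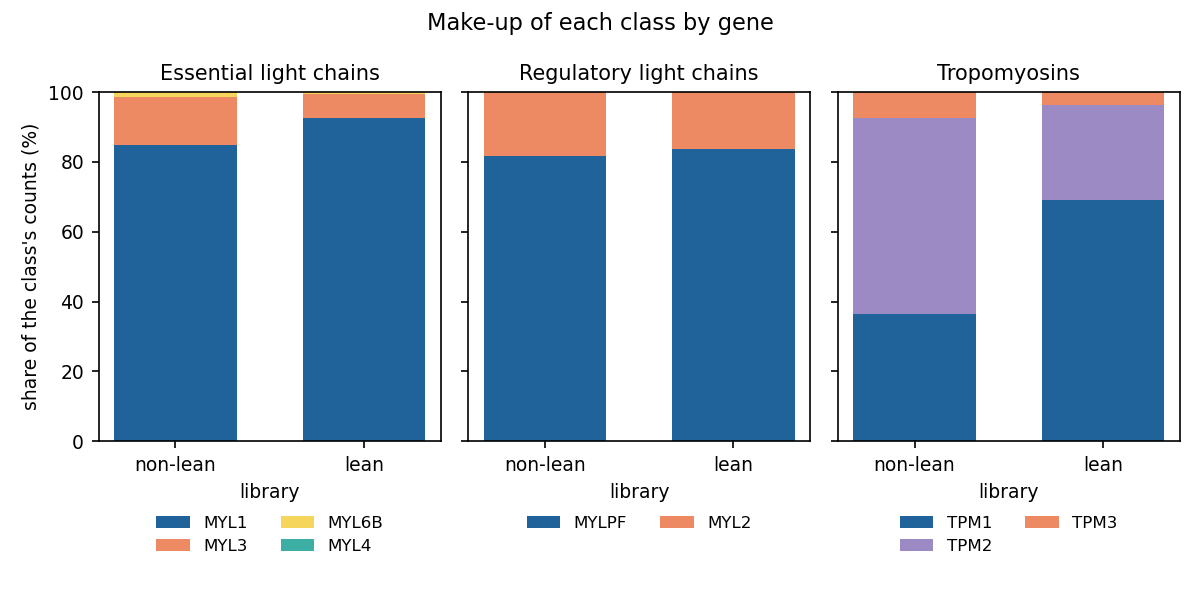
Share of the counts (%) of each class that each gene held in the non-lean and the lean library, as stacked bars. TPM1 holds 36.5% of tropomyosin counts in the non-lean library and 69.2% in the lean library, and MYL2 holds 18.3% and 16.3% of regulatory light chain counts.

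Ratios of genes within a library, mostly of a slow to a fast gene, do not depend on library scaling when set side by side. Nor do they depend on gene length where its effect is the same in both libraries. The MYL3/MYL1 count ratio was 0.161 in the non-lean and 0.0729 in the lean library, 2.21 times as high (2.15 to 2.26, exact conditional interval of the odds ratio). For MYL6B/MYL1 the factor was 2.71 (2.52 to 2.92). MYL2/MYLPF was 0.224 and 0.195, a factor of 1.15 (1.13 to 1.16). TPM3/TPM1 was 0.204 and 0.0538, a factor of 3.79 (3.70 to 3.88), and TPM2/TPM1 was 1.54 and 0.392, a factor of 3.93 (3.88 to 3.97). The MYL4/MYL1 factor, on 15 counts of MYL4, had an interval of 0.777 to 9.30.

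All 6 factors lay above 1, and the interval of MYL4/MYL1 held 1. They are not 6 separate results, since the pairs over MYL1 share that gene and the pairs over TPM1 share TPM1. TPM2/TPM1 and MYL4/MYL1 are also not slow over fast pairs. The 4 slow members summed over the 3 fast members (TPM2 and MYL4 aside) gave 1.96 (1.94 to 1.99). With TPM1 left out of the fast sum, a choice made after seeing the data, it was 1.54 (1.52 to 1.55). TPM3/TPM2 had a factor of 0.964 (0.941 to 0.988), as both genes had similar ratios. Set against the fast light chain, the TPM1/MYL1 ratio was 0.695 in the non-lean and 1.37 in the lean library, a factor of 0.508 (0.503 to 0.514).

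The troponins, partners of tropomyosin on the thin filament, also gave slow over fast factors above 1. TNNT1/TNNT3 stood at 2.45 (2.41 to 2.49), between the essential pairs MYL3/MYL1 and MYL6B/MYL1. TNNI1/TNNI2 at 2.01 (1.97 to 2.05) and TNNC1/TNNC2 at 1.70 (1.67 to 1.73) lay below both and above MYL2/MYLPF. The slow troponins had a median ratio of 0.96, and the fast troponins TNNT3, TNNI2 and TNNC2 stood at -0.18, -0.04 and 0.12, near MYL1 and MYLPF and not near TPM1. TPM1 had a factor of 0.524 (0.519 to 0.529) against TNNT3. Of the fast myosin heavy chains, MYH4 was lower at -1.34, MYH1 stood at -0.93 and MYH2 at -0.05. Heavy chain genes are alike in sequence, and how reads were split between them is uncertain.

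**Figure D4:**
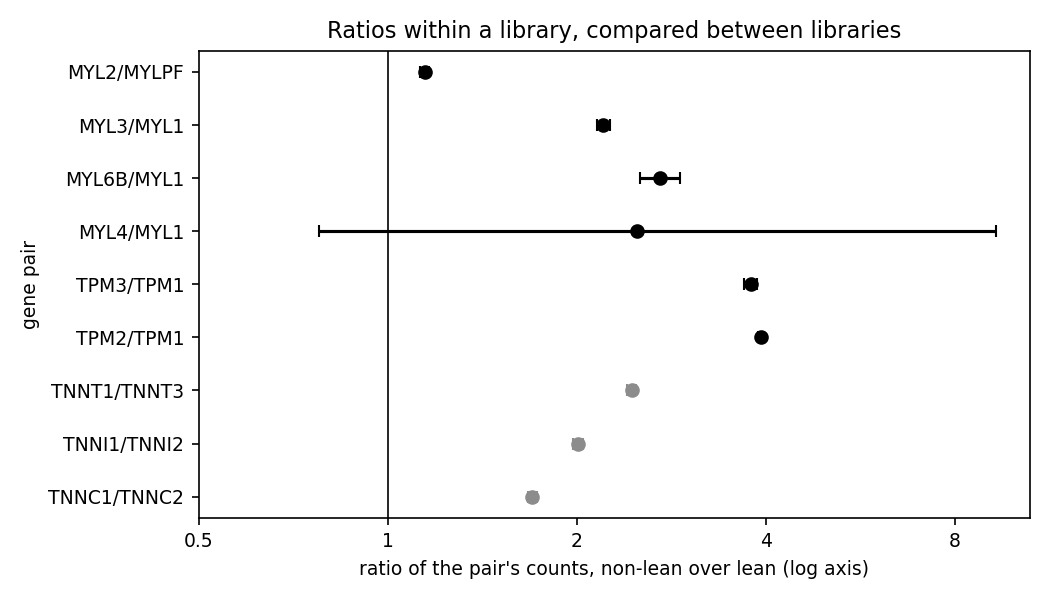
For each pair of genes, the ratio of their counts within a library, divided as non-lean over lean (log axis), with exact 95% counting intervals; black points are member pairs and grey points troponin pairs. TPM2/TPM1 and TPM3/TPM1 lie near 4, MYL3/MYL1 at 2.21 and MYL2/MYLPF at 1.15.

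The transcript rows show how the estimated counts of each gene were split among its transcripts in each library. The files name these rows by RefSeq accession without saying which exons or which fibre type each belongs to, so no isoform name is given here. Rows of 1 gene share most of their sequence, and the split among them is an estimate whose error is not in the intervals.

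TPM1 had 19 rows, of which 13 were at 0 in both libraries. Its leading row, XM_005559716.2, had 63316 counts in the non-lean and 173906 in the lean library, a ratio of -1.27 [-1.28, -1.26]. The second row, XM_005559719.2, had 26832 and 52908 counts, a ratio of -0.79 [-0.81, -0.77]. The leading row thus carried 82.6% of the CPM difference of the gene, and its share of TPM1 was 67.5% in the non-lean and 75.6% in the lean library. The second row held 28.6% (28.3 to 28.9) and 23.0% (22.8 to 23.2).

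The other TPM1 rows were each under 2% of the gene. Of the 6 rows with counts, 3 had ratios below 0 and 3 above. XM_005559715.2 had 1484 counts in the non-lean and 994 in the lean library and stood at 0.76 [0.65, 0.88], and XM_005559725.2 stood at 0.61 [0.45, 0.77]. XM_005559720.2 stood at -0.73 [-0.94, -0.53]. So TPM1 was not lower row by row, but the rows above 0 held too few counts to offset the leading ones.

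TPM2 was more even. Its leading row, XM_005581361.2, had 137901 and 86331 counts and held 95.6% of the gene in the non-lean and 95.8% in the lean library. All 4 rows with at least 20 summed counts had ratios above 0, between 0.57 and 1.31. One of them, XR_284625.2, a row of the kind RefSeq uses for non-coding transcripts, had 4841 and 3069 counts and stood at 0.84, close to the leading row at 0.86.

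TPM3 had 17 rows, of which 11 were at 0 in both libraries. The leading row, XM_005541700.2, had 17518 and 11577 counts and stood at 0.78 [0.75, 0.82]. The second, XM_015451575.1, had 1087 and 459 counts and a higher ratio of 1.43 [1.27, 1.59], so that its share of TPM3 was 5.69% (5.36 to 6.02) in the non-lean and 3.71% (3.38 to 4.06) in the lean library. XM_005541701.2, with 107 and 167 counts, was the 1 row of at least 20 summed counts below 0, at -0.45 [-0.82, -0.10].

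MYL1 is known to make a longer and a shorter chain from separate promoters, but the files do not say which row is which. Its leading row, XM_005574170.2, had 101272 counts in the non-lean and 123249 in the lean library and stood at -0.10. The second, XM_015432719.1, held 20.1% and 21.6%. With TMM the 4 rows had ratios between -0.30 and -0.10. Scaling to the sarcomere genes adds 0.42 and turns each of them positive, so their sign, like that of the gene, depends on the scaling. In MYL6B all 4 rows with counts had ratios above 0, between 0.49 and 1.88. Its leading row held 86.5% (85.0 to 87.9) in the non-lean and 81.6% (79.1 to 83.9) in the lean library, and its second row 8.36% and 14.7%. MYL2, MYL3 and MYLPF have 1 row each.

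**Figure D5:**
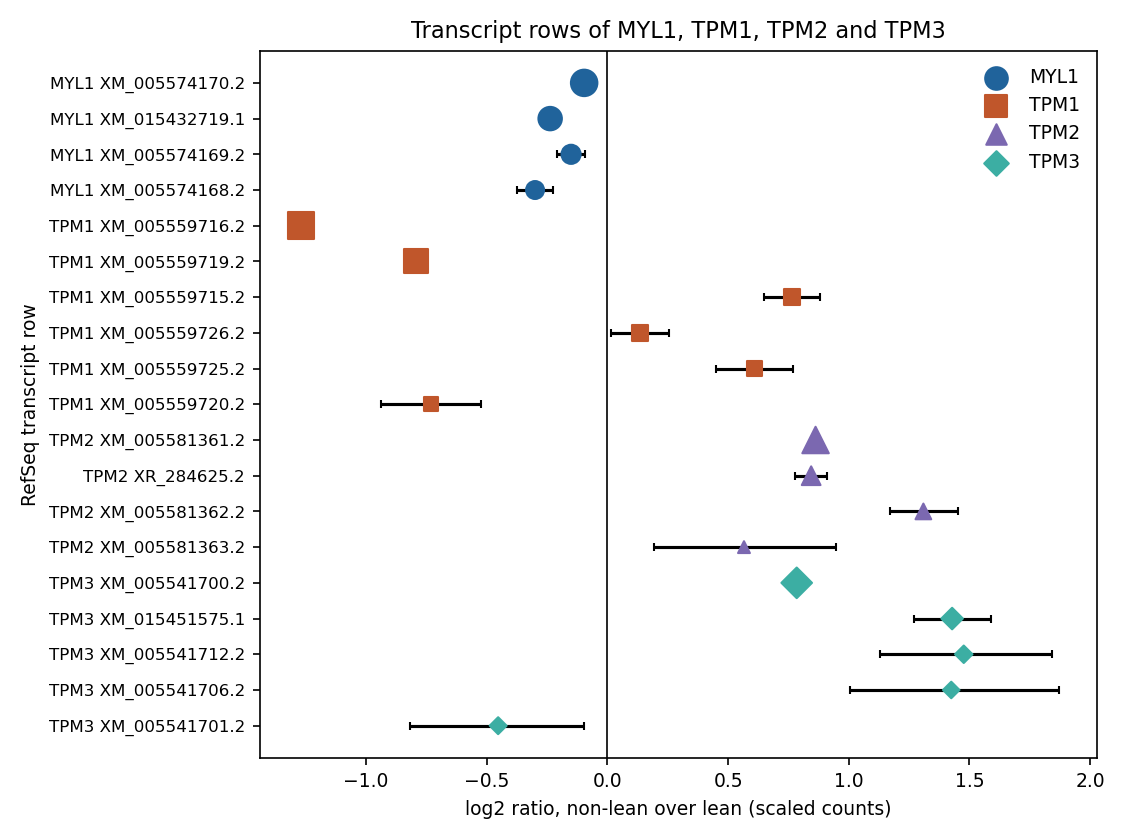
Log2 ratio (non-lean over lean), with 95% counting intervals, of every transcript row of MYL1, TPM1, TPM2 and TPM3 with at least 20 summed counts; larger symbols have more CPM. The leading TPM1 rows lie at -1.27 and -0.79 while 3 minor TPM1 rows lie above 0, and the plotted rows of TPM2 lie between 0.57 and 1.31.

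Other genes of the same machinery, from lists chosen by name, did not follow 1 direction. Of 7 further myosin light chains, 4 were tested, and none was called by the 2-fold rule. The non-muscle and smooth muscle chains MYL9, MYL12A and MYL12B had 1730, 2735 and 566 counts in the non-lean and 2387, 3460 and 679 in the lean library. With TMM their ratios were -0.28, -0.15 and -0.08, and MYL12B's interval held 0. Total counts add 0.14, which turns MYL12B positive, and scaling to the sarcomere genes adds 0.42, which turns each of them positive.

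The 8 light chain kinase and phosphatase genes were all tested, and 1 was called. MYLK4, a kinase of the same family, was higher with 996 and 448 counts, at 1.34, or 2.53-fold. MYLK2, the skeletal muscle kinase that phosphorylates the regulatory chain, had 18278 and 16310 counts and stood at 0.35 [0.32, 0.38], close to MYL2. PPP1R12B, a targeting subunit of the myosin phosphatase, had 1205 and 1987 counts and stood at -0.53 [-0.64, -0.43].

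Of 11 other thin filament genes, 2 were called, both higher. These were the leiomodins LMOD2, with 11817 counts in the non-lean and 5060 in the lean library at 1.41 [1.36, 1.46], and LMOD3, with 8488 and 4561 at 1.08 [1.03, 1.14], which help to nucleate actin filaments. The filament end cap genes TMOD1 and TMOD4 stood at -0.26 and 0.13. Nebulin, NEB, a giant protein that runs along the filament, stood at -0.74, and skeletal actin, ACTA1, at -0.42. The non-muscle tropomyosin TPM4 had 108 and 215 counts and stood at -0.80 [-1.15, -0.47].

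All 8 skeletal fibre markers were detected, with 150534 summed CPM in the non-lean and 202151 in the lean library. With TMM, 7 of their intervals lay below 0 and 1 above, that of MB at 0.80 [0.79, 0.82]. Total counts add 0.14 to each ratio, which turns DES (-0.09) and MYH2 (-0.05) positive. Scaling to the sarcomere genes adds 0.42, with which CKM (-0.57), NEB (-0.74) and MYH1 (-0.93) stay below 0. Smooth muscle markers, whose cells also use TPM1 and TPM2, had 295 and 327 summed CPM, and 6 of 6 were detected in both libraries. Fibroblast markers had 411 and 906 summed CPM with 5 of 6 called lower, and macrophage markers 19.5 and 58.7 with 4 of 4 called lower. The part of these cells in the members' ratios was not tested. Of cardiac markers, NPPB was at 0 in both libraries, NPPA had 3 and 2 counts and MYL7 had 2 and 1. The cardiac heavy chain MYH6 was the 1 tested gene of that list. It had 2668 counts in the non-lean and 2583 in the lean library, a ratio of 0.23 [0.15, 0.31]. MYH6 also resembles other heavy chain genes in sequence, so how many of these reads belong to it is uncertain.

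Gene lists of short and of long transcripts stood on opposite sides of 0. The 82 tested cytosolic ribosomal protein genes, known for short transcripts, had a median ratio of 0.32, and 14 genes known for very long ones, among them TTN and NEB, had a median of -0.75. Light chain and tropomyosin transcripts are short beside those 14, and the part of transcript length in the members' ratios was not tested.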

How the data were processed

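Gastrocnemius RNA was measured in 1 non-lean and 1 lean library. Per the labels' protocols, polyadenylated RNA was read on a BGISEQ-500 after random priming, with no strand-marking step named. The authors deposited expected counts, estimated per RefSeq transcript and not normalised, per the file headers. RSEM 1.3.3, STAR 2.7.8a and Trim Galore 0.6.6 are listed, with no role for each, per the submitters' processing notes. Build and annotation release: not given in the sources used here, so coordinates are left out.

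The 76183 rows were summed by symbol into 28162 genes and rounded. Placeholder (720) and older (594) symbols took current names from a RefSeq table of T2T-MFA8v1.1, also used for which genes neighbour or overlap. Libraries were scaled by TMM in edgeR 4.0.16 (R 4.3.3), with factors of 1.05 (non-lean) and 0.952 (lean). Ratios used a prior count of 0.5, and their intervals are Clopper-Pearson intervals of the split of the summed count. These intervals cover counting error only. Since PCR copies were not marked by molecular identifiers, copies count as separate reads, and the intervals may be too narrow even for that. Intervals of pair ratios come from Fisher's conditional likelihood. Ratios and calls were checked on simulated counts that held counting error alone, so the check cannot show how they hold up to replicate spread. Alternatives were total counts, DESeq2 1.42.0 size factors, upper quartile factors, scaling to 11 sarcomere genes, other filters, folds and prior counts, no rounding, and the leading transcript row alone. All 9 members are named, with every row at or above 5% of MYL1, TPM1, TPM2 or TPM3; minor rows, class shares, the sarcomere scaling and the abundance limit of 500 CPM were chosen after seeing the data. With 2 libraries a pattern is 1 ratio, so no genes were named for likeness. Members and lists were chosen with earlier results of these data known. Python 3.11.15, pandas 2.3.3, scipy 1.17.1 and matplotlib 3.10.9 were used.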

Additional observations from a re-analysis of the deposited data

How the results depend on the processing

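Scaling moved every member by the same amount, since it shifts 1 library against the other. The median ratio of the 8 tested members was 0.57 with TMM, 0.71 with total counts, 0.54 with DESeq2 size factors, 0.61 with upper quartile factors and 0.99 when scaled to other sarcomere genes, a choice made after seeing the data. MYL1 changed sign with total counts (0.0099) and with the sarcomere genes (0.288). Members called higher numbered 2 with TMM, 3 with total counts, 1 with DESeq2 size factors and 2 with upper quartile factors. They numbered 4 with the sarcomere genes and 4 at 1.5-fold. Members called lower numbered 1 with TMM, DESeq2 size factors or upper quartile factors and 0 with total counts or the sarcomere genes. Over the 13703 tested genes with TMM, 672 (4.9%) were called higher and 980 (7.15%) lower, so that 40.7% of calls were higher. With total counts 930 were higher and 731 lower (56.0% of calls higher), and with the sarcomere genes 2031 and 453 (81.8%). With DESeq2 size factors these were 644 and 1039 (38.3%), and with upper quartile factors 727 and 909 (44.4%). Genes called higher numbered 1081 with no filter on low counts, 230 at a minimum CPM of 5 and 1629 at 1.5-fold, and genes called lower 483 at a minimum CPM of 5 and 2109 at 1.5-fold.

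Class shares and pair ratios do not depend on scaling. From the leading transcript row alone, the MYL3/MYL1 factor was 2.15, TPM3/TPM1 4.16, TPM2/TPM1 4.39 and slow over fast members 1.92, against 2.21, 3.79, 3.93 and 1.96 from whole genes. With TPM1 left out of the fast sum, slow over fast members gave 1.54. The leading row of TPM1 stood at -1.27 and the whole gene at -1.11. The prior count of 5, the values without rounding and the shares without rows under 10 counts kept every result within its interval. No paired analysis was possible because each group has 1 library, and for the same reason no library could be left out. Depth limits MYL4 alone among the members.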

Other observations

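Of 5 genes of regenerating or developing fibres, 4 were tested, with 3 intervals below 0, 0 above and 1 that held 0. The neonatal myosin heavy chain MYH8 had 373 counts in the non-lean and 3282 in the lean library, a ratio of -2.95, and the embryonic chain MYH3 had 72 and 159 counts, at -0.95. The muscle differentiation factor MYOG stood at 0.11 [-0.04, 0.26], with 702 and 739 counts, and its interval held 0. The satellite cell adhesion gene NCAM1 stood at -1.17, with 204 and 524 counts. MYMK had 0 and 2 counts and was not tested. The developmental light chain MYL4, outside this list, had 10 and 5 counts. MYH8 resembles other heavy chain genes in sequence, so its share of their reads is uncertain. Of the 4 tested genes of this list, MYH8 and NCAM1 were called lower.

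A pseudogene that overlaps MYL1 in the reference annotation had 39 counts in the non-lean and 3 in the lean library. Of the 57 transcript rows of the members, the leading rows of TPM2 and TPM3 are under accessions that the current RefSeq table does not list, while those of TPM1 and MYL1 are still listed.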
